A study of Mus musculus with 4 samples.

Results

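The Fc gamma receptors are the surface proteins with which myeloid cells bind IgG in immune complexes. Their 4 mouse genes, Fcgr1, Fcgr2b, Fcgr3 and Fcgr4, were described together with Fcer1g, the gene of the signalling chain of the activating receptors, as 5 of the 32285 genes counted. The members were chosen by name, with 2 Fc receptor antibodies of the 92 in the panel, CD64 (the protein of Fcgr1) and FceRIa (the alpha chain of the high-affinity IgE receptor). Each library came from the synovium of mouse ankles and paired RNA with surface protein counts per cell by CITE-seq, a method that tags each antibody with a DNA barcode. The mice were bone marrow chimeras: CD45.2 B6 recipients, irradiated with the ankle shielded, that had received CD45.1 B6 marrow. Baseline cells, of day 0, came from chimeras without treatment. Chimeras given K/BxN serum through the retro-orbital route, which transfers arthritis (STIA), gave the peak library on day 7, that of the plateau on day 14 and that of the resolution stage on day 56. In the sources used here, neither the age nor the number of mice in a library is given. All 3 serum-treated samples have "Clo-lip" in their title, unexplained elsewhere, and its part and that of the stage cannot be told apart.

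In mice, the products of Fcgr1, Fcgr3 and Fcgr4 are activating receptors. They signal through the gamma chain that Fcer1g encodes, whose tyrosine motif is phosphorylated by Src-family kinases and then recruits Syk. The product of Fcgr2b is the inhibitory receptor and recruits the lipid phosphatase SHIP1, encoded by Inpp5d. K/BxN serum carries antibodies to glucose-6-phosphate isomerase, and the arthritis it transfers is known to need immune complexes and the gamma chain.

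By the labels, the sort took live CD45+ CD11b+ cells that were negative for Ly6G, SiglecF, CD64, MHCII, Ly6C and CD177. The data go against this gate in part. MHCII genes were among the 10 leading genes of 3 clusters (596, 353 and 273 cells), and a cluster with Ly6c2 RNA held 1059 cells. The CD64 antibody had a median of 2 UMIs per cell at peak and 1 at plateau, against 0 in the fibroblast-like clusters there. Per 10000 antibody UMIs, however, those clusters held 10.7 and 33.5 at peak, against 26.5 over all cells. Whether the CD64 counts exceed background was not tested. The levels of Fcgr1 and CD64 describe the cells of these libraries and not the joint as a whole. From baseline to resolution, 1071, 5941, 2828 and 4611 cells passed filters of 300 genes and of 10% mitochondrial UMIs, with a median of 7752, 8250, 6783 and 4912 gene UMIs. Libraries shared between 1 and 10 cell barcodes per pair, at most 0.355% of the smaller library. A cell was called donor when the log2 ratio of its CD45.1 to CD45.2 antibody UMIs, 1 added to both, was at least 1, and recipient when it was at most -1. This gave 808, 5576, 2402 and 3249 donor cells and 190, 219, 239 and 730 recipient cells. Where the labels give no separate mice, p-values over the 4 libraries measure only the spread between these libraries.

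Fcgr2b, Fcgr4, Fcgr3 and Fcer1g lie together on chromosome 1, between 170960558 and 171234349, and Fcgr1 lies on chromosome 3, from 96282909 to 96293969 (GRCm38.p6, the RefSeq assembly that corresponds to mm10). The 250 bases before the RefSeq start of Fcgr1, Fcgr2b and Fcgr4 are printed because these genes had the most different patterns over the clusters. Capitals mark matches, on either strand, to GAAANNGAAA (the core of interferon-stimulated response elements, TTTCNNTTTC on the other strand) and AGGAAG (an ETS-type core of the kind bound by PU.1, CTTCCT on the other strand). The windows are chr3:96293970-96294219 on the minus strand, chr1:170976072-170976321 on the minus strand and chr1:171018676-171018925 on the plus strand.
Fcgr1: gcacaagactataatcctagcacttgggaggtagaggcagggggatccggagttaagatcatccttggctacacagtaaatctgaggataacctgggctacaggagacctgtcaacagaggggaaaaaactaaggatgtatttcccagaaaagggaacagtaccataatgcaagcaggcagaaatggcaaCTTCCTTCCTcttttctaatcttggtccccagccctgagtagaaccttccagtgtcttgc
Fcgr2b: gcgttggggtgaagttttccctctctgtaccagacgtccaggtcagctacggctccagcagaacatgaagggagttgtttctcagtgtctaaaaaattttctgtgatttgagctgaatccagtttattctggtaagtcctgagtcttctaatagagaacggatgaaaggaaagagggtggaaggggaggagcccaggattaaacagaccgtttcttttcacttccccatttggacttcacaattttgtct
Fcgr4: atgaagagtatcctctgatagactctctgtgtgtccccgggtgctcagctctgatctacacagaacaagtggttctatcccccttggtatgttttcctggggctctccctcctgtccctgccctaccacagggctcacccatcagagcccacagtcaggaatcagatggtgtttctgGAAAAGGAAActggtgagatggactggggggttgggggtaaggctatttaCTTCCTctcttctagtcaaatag
Fcgr1 holds overlapping CTTCCT matches between 60 and 51 bases before its start. Fcgr4 holds GAAAAGGAAA from 73 to 64 bases before its start and a CTTCCT match. The Fcgr2b window holds neither motif. Of 27025 promoters of this length, 3.04% hold GAAANNGAAA and 29.2% hold AGGAAG. A match describes letters and is no measured site.

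Fcgr1, the high-affinity activating receptor, was the member with the widest range over the stages. Its level, in CPM (UMIs of the summed cells scaled to a fixed total of gene UMIs), was 45.4 at baseline, 294 at peak, 135 at plateau and 16.5 at resolution. Peak stood highest and resolution lowest, and the exact 95% Poisson intervals of the 4 libraries, such as 41.7 to 49.4 at baseline and 289 to 298 at peak, did not overlap. With 1 library per stage there is no test between stages, and these intervals cover counting error only. The peak level was 6.47-fold the baseline level (95% interval 5.94 to 7.06), and the resolution level was 8.18-fold below the plateau level. After each cell was thinned to 2000 UMIs, leaving out 83, 444, 422 and 572 shallower cells, 9.01%, 38.7%, 27.1% and 3.49% of cells held an Fcgr1 UMI, against 26.5%, 65.8%, 43.7% and 7.70% unthinned. In the fibroblast-like cells of the same libraries, which should lack the gene, the thinned shares were 2.27%, 2.45%, 1.39% and 0 (0 UMIs in 234 cells), at a median of 10786, 14462, 11994 and 5249 UMIs. Between 2 libraries, a log2 ratio past 1 in either direction was counted as past 2-fold. Fcgr1 was past it in every contrast, as were 21.2% of 13084 genes at peak over baseline, 20.1% of 13501 at plateau over peak, 23.8% of 13291 at resolution over plateau and 17.4% of 12658 at resolution over baseline. Stage ratios were also computed from CPM averaged over clusters, which gives a ratio of averages and not an average of ratios within clusters. When each cluster present in both libraries was given equal weight, the log2 ratio of peak to baseline was 1.31 in place of 2.69, that of plateau to peak -0.059 in place of -1.12, and that of resolution to baseline -0.54 in place of -1.46, so that the last 2 were no longer past 2-fold. Stricter cell filters also ended the call from peak to plateau, at -0.90.

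**Figure D1:**
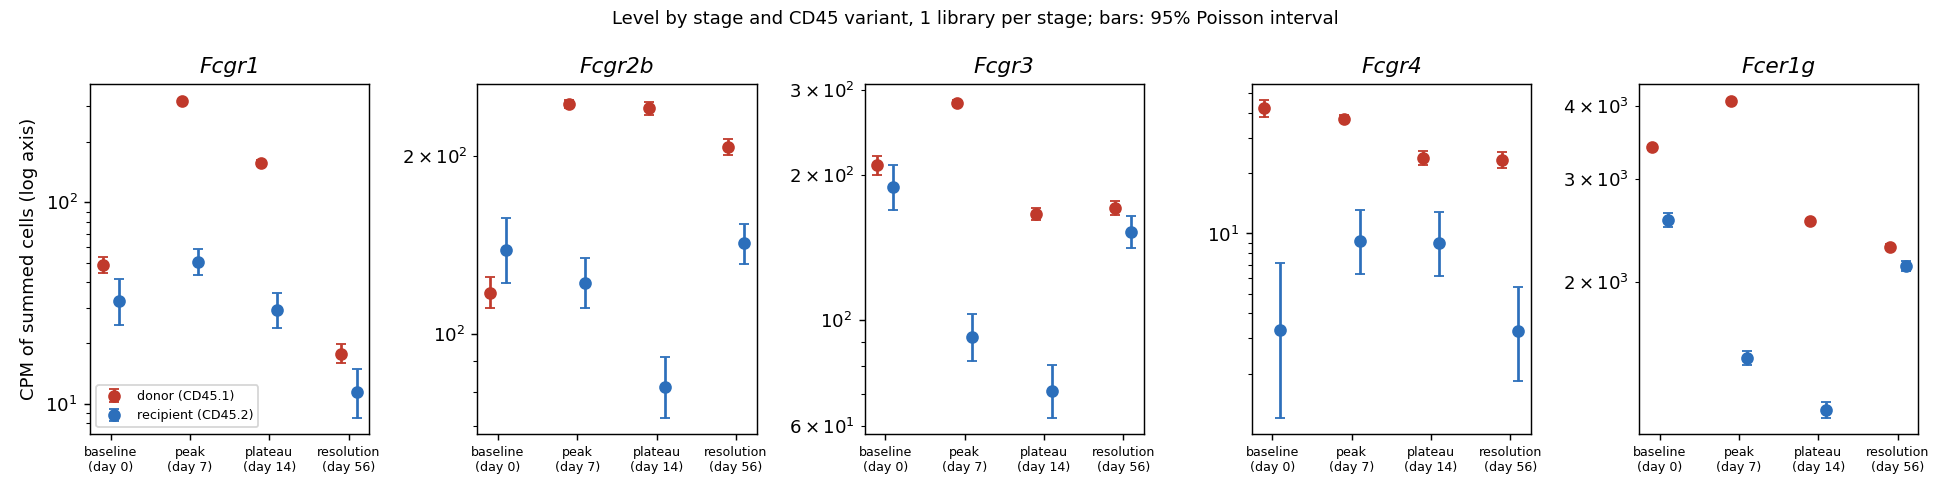
CPM of the 5 genes (log axis) in the summed donor (red) and recipient (blue) cells of each library, with exact 95% Poisson intervals that cover counting error only. Donor Fcgr1 runs from 319 CPM at peak to 17.7 at resolution, and recipient cells lie below donor cells in every panel and stage except Fcgr2b at baseline.

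Fcgr2b, the inhibitory receptor, had its lowest level at baseline. It stood at 120 CPM at baseline, 230 at peak, 211 at plateau and 187 at resolution. The 3 arthritis libraries all lay above baseline, and none of the 4 contrasts passed 2-fold. The peak level was 1.92-fold the baseline level (95% interval 1.82 to 2.03), and the resolution level was 1.56-fold (1.47 to 1.66). In donor cells alone the peak level was 2.08-fold the baseline level, past 2-fold, as were 9.62% of the 12405 genes tested in that direction. Fcgr2b and Fcgr3 are closely similar in the sequence of their extracellular domains, so reads from shared stretches could be split or lost between them, which was not tested. Fcgr3, the activating low-affinity receptor, stood at 204, 263, 148 and 164 CPM. It was highest at peak, and its plateau level was 1.78-fold below the peak level. Fcgr4, an activating receptor known from patrolling monocytes, stood at 35.0, 34.7, 21.2 and 18.6 CPM. Baseline and peak overlapped within counting error, and the resolution level was 0.878-fold the plateau level (95% interval 0.779 to 0.989).

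Fcer1g, the chain of the activating receptors, had the highest count of the 5. It stood at 3192, 3807, 2277 and 2227 CPM. Baseline and peak were higher than plateau and resolution, and the chain was found in 96.0%, 95.2%, 90.3% and 91.5% of thinned cells. The 4 genes other than Fcgr1 were past 2-fold in no contrast of all cells. With edgeR's TMM totals as the scale, Fcgr2b from baseline to peak (1.07), Fcgr3 from peak to plateau (-1.07) and Fcgr4 from baseline to resolution (-1.09) were past it. With equal weight to each cluster, the log2 peak to plateau ratios were 0.08 for Fcgr3, 0.30 for Fcgr4 and -0.04 for Fcer1g, in place of -0.83, -0.71 and -0.74. In Cxcl3-led cells, for example, Fcer1g stood at 4059 CPM at peak and 4035 at plateau. The part of the make-up of the libraries in the ratios of all cells was not tested. From plateau to resolution the same weighting gave -0.68 for Fcgr3, in place of 0.15, and -1.38 for Fcgr4, past 2-fold. A median over all genes tested differed from 0 as well, at -0.13 (log2) from baseline to peak, 0.30 from peak to plateau, 0.06 from plateau to resolution and 0.18 from baseline to resolution. A fall of 0.74 on the log2 scale for Fcer1g from peak to plateau is therefore set against a general shift upwards. These 3' counts depend on capture of each transcript, so a comparison between genes is a comparison of counts.

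The mix of the 4 receptors differed between the stage libraries. The share of Fcgr2b among all Fc gamma receptor UMIs was 29.7% (exact 95% interval 28.4 to 31.0) in the baseline library, 28.0% (27.6 to 28.4) in the peak, 41.0% (40.2 to 41.8) in the plateau and 48.5% (47.5 to 49.4) in the resolution library. Plateau and resolution were higher than baseline and peak. The share of Fcgr1 was 11.2%, 35.7%, 26.2% and 4.27% in the same order, and that of Fcgr3 was 50.5%, 32.0%, 28.7% and 42.4%. Fcgr3 was thus the most counted receptor at baseline, Fcgr1 at peak, and Fcgr2b at plateau and resolution. Within clusters the Fcgr2b share moved less evenly from peak to plateau. It went from 24.7% to 25.8% in the cluster led by Dmkn and from 56.8% to 56.7% in that led by Spp1. In the cluster led by Cd209a it rose from 41.2% to 56.9%, and in that led by Vsig4 it fell from 53.0% to 31.4%. The part of the cluster make-up of the libraries in the shares of all cells was not tested.

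**Figure D2:**
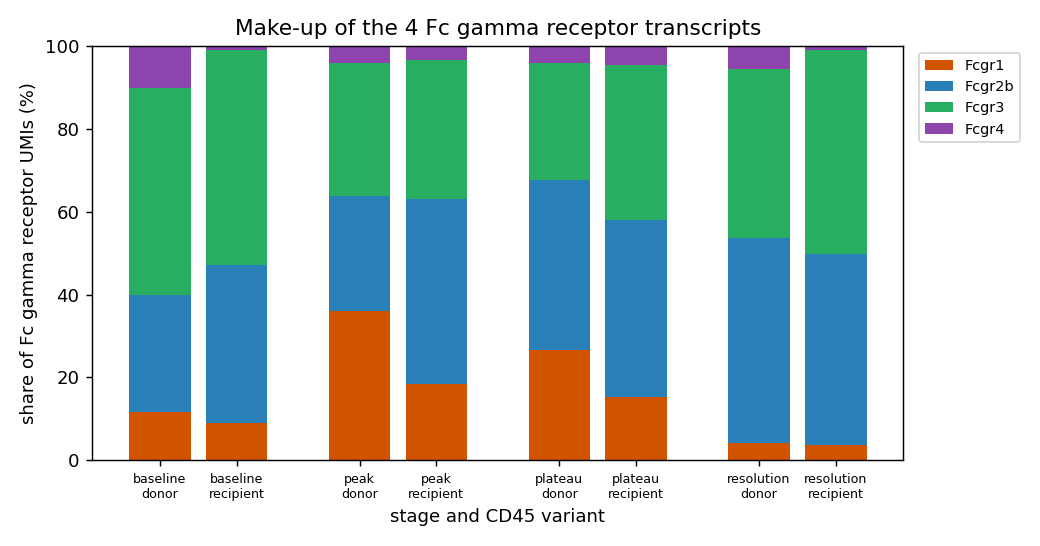
Stacked bars of the share of each receptor among Fc gamma receptor UMIs, in percent, for donor and recipient cells of each library. The Fcgr1 part is largest in donor cells at peak (36.1%), and the Fcgr2b part of donor cells is 28.1%, 27.7%, 41.0% and 49.4% from baseline to resolution.

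The same share was set side by side for donor and recipient cells. Donor Fcgr2b shares were 28.1%, 27.7%, 41.0% and 49.4%, and recipient shares were 38.2%, 44.6%, 42.7% and 46.0%. The recipient share was higher in 3 of 4 libraries, and the donor share was higher at resolution. The mean difference, donor minus recipient, was -6.33 percentage points (SD 8.98, n = 4 libraries), with p = 0.375 by an exact two-sided sign-flip permutation test, whose smallest possible p is 0.13. The difference was within the spread between libraries.

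The receptors were spread unevenly over the cell clusters. Clusters were made without the 5 genes, so that their levels did not shape them, and were named from marker genes. Levels by cluster are over the libraries summed unless a library is named, and the libraries fill the clusters unequally. Fcgr1 was highest in the classical monocyte-like cluster led by the interferon-response genes Cxcl10, Rsad2 and Ifit3, at 644 CPM. By library, that cluster stood at 248 CPM at baseline (22 cells), 657 at peak (952 cells), 653 at plateau (65 cells) and 192 at resolution (20 cells). Peak and plateau were high, and baseline and resolution were lower, although in each of these libraries it exceeded every other cluster with at least 20 cells. In its RNA 5 of 7 classical monocyte markers were met, Ly6c2 among them. Next for Fcgr1 came the unnamed clusters led by Dmkn and Tarm1 (356 CPM), by Cxcl3 and Cxcl2 (354 CPM) and by H2-Eb1 and H2-Aa (291 CPM), the first 2 of which did not differ beyond the spread of their libraries. The lowest clusters with a UMI of Fcgr1 were fibroblast-like (5.05 CPM), the unnamed cluster led by Mmp12 and Mgl2 (5.67 CPM) and the larger osteoclast-like cluster (7.72 CPM).

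Fcgr4 had a different order. It was highest in the nonclassical monocyte-like cluster, at 209 CPM, where all 9 of its markers were met. The value was 206 CPM at baseline (218 cells), 213 at peak (20 cells) and 210 at resolution (529 cells), the 3 libraries with at least 20 such cells, which hardly differed. The peak cells held only 37 Fc gamma receptor UMIs, 45.9% of them Fcgr4, so the peak value is imprecise. The cluster led by H2-Eb1 (82.5 CPM) and the interferon-led classical monocyte-like cluster (78.3 CPM) followed, and differed from each other by less than the spread of their libraries. In the nonclassical monocyte-like cells Fcgr4 made up 49.1% of receptor UMIs and Fcgr1 5.34%. While its level was similar in these 3 libraries, its share of donor cells was 26.6% at baseline, 0.3% at peak, 0.5% at plateau and 14.6% at resolution.

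Fcgr2b was highest in the cluster led by H2-Eb1 and H2-Aa (572 CPM) and in that led by Spp1, Cav1 and Arg1 (484 CPM), with libraries summed. The order changed within libraries. The H2-Eb1-led cluster stood at 520.4 CPM at peak, below the Vsig4-led tissue macrophage-like cluster (582), and at 658 at plateau, above all others with at least 20 cells. At resolution the Mmp12-led (277) and a type 2 dendritic-like cluster (275) were highest, and at baseline that dendritic-like cluster (219.7). In the Spp1-led cluster Fcgr2b was 465 CPM at peak, 517 at plateau and 207 at resolution (22 cells). Over the libraries summed, the Fcgr2b share of receptor UMIs stood at 17.3% in nonclassical monocyte-like and 18.6% in classical monocyte-like cells, and at 57.0% in Spp1-led and 61.1% in Mmp12-led cells. At resolution it was 79.3% in the other type 2 dendritic-like cluster (103 cells), 71.0% in Spp1-led, 66.4% in cycling (Mki67, Top2a) and 62.0% in Mmp12-led cells. In the tissue macrophage-like cluster led by Vsig4, Lyve1 and Folr2, Fcgr2b stood at 175 CPM at baseline, 582 at peak, 189 at plateau and 174 at resolution. Peak, with 53 cells, stood apart from the other 3 libraries there.

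Fcgr3 was highest in the Dmkn-led (365 CPM), H2-Eb1-led (345 CPM) and classical monocyte-like (337 CPM) clusters with libraries summed, and these 3 lay within the spread of their libraries. Within the peak library the Vsig4-led (386) and Ifitm6-led (378) clusters stood above the Dmkn-led one (361), and at baseline and resolution the dendritic-like cluster with the highest baseline Fcgr2b stood highest (319.6 and 261). Fcer1g was near its top in nonclassical monocyte-like (5080 CPM), classical monocyte-like (5028 CPM) and Dmkn-led (4914 CPM) cells. The larger osteoclast-like cluster, with 656 cells and a median of 26281 UMIs per cell, was low for every receptor, at 7.27 CPM for Fcgr3, 24.4 for Fcgr2b, 7.72 for Fcgr1 and 2.48 for Fcgr4, while Fcer1g stood at 1034 CPM. A second osteoclast-like cluster (155 cells, median 682 UMIs) stood higher, at 133 CPM for Fcgr1, 199.6 for Fcgr2b, 133 for Fcgr3 and 47.5 for Fcgr4, values that rest on 14, 21, 14 and 5 UMIs. Of its cells 153 came from plateau, where they stood at 125, 202, 134 and 48.0 CPM. All cells of that library stood close to this for the first 3 genes (135, 211 and 148) and lower for Fcgr4 (21.2). Fibroblast-like cells, which should lack these genes, held 9.28 CPM of Fcgr1, 15.9 of Fcgr2b, 17.8 of Fcgr3, 3.57 of Fcgr4 and 265 of Fcer1g over 665 cells. Within the peak and plateau libraries, the levels of the larger osteoclast-like cluster for Fcgr1 (6.72 and 8.57), Fcgr3 (7.71 and 6.96) and Fcgr4 (3.28 and 2.14) lay at or below the upper counting limit of the fibroblast-like level there, and are read as background. Those of Fcgr2b (31.5 and 20.1) and Fcer1g (1120 and 977) lay above it. The baseline fibroblast-like cells were the highest for Fcer1g, at 1618 CPM in 49 cells.

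**Figure D3:**
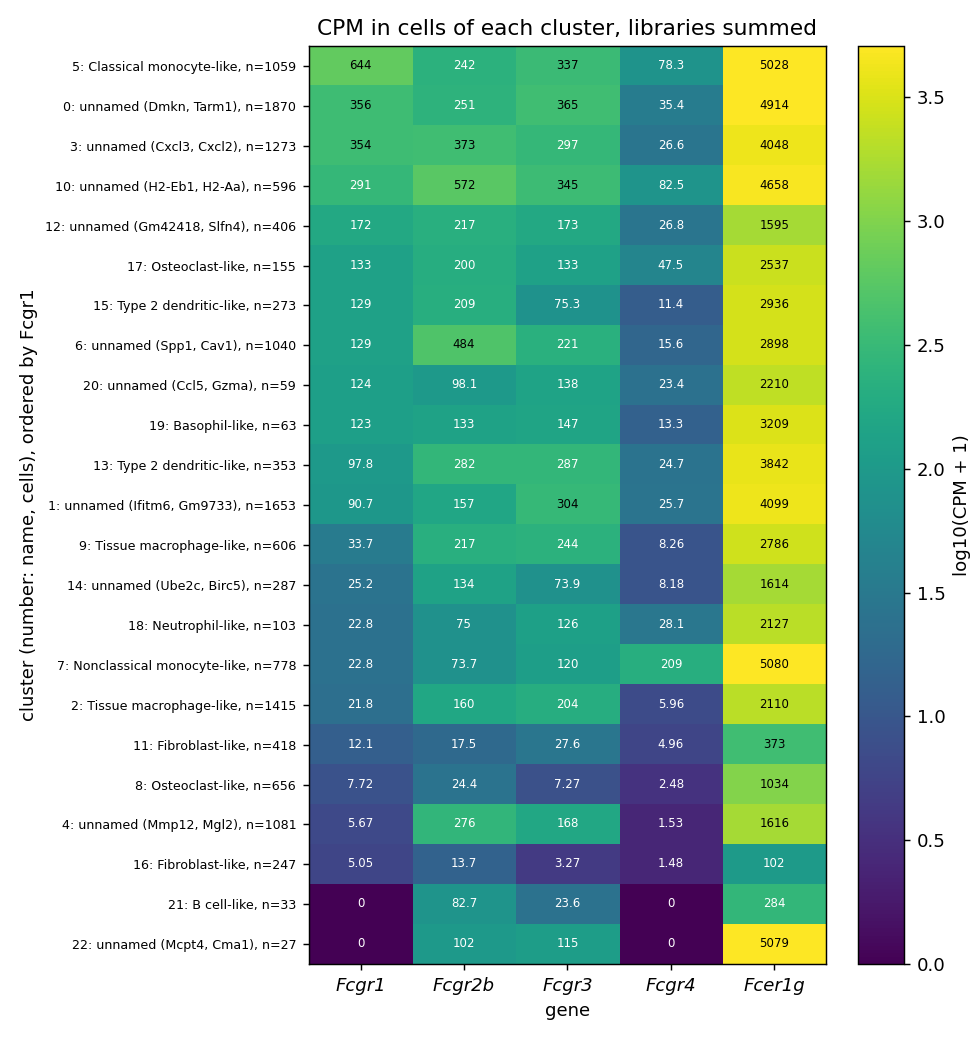
CPM of each gene (columns) in the cells of each cluster (rows, ordered by Fcgr1), libraries summed, with colour showing log10(CPM + 1). Fcgr4 is highest in the nonclassical monocyte-like cluster (209) and Fcgr1 in the classical monocyte-like cluster (644).

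Over the 58 sums of cells by library and cluster (21 clusters, 5284 genes), the genes most like each member were ranked by Pearson's correlation of log2(CPM + 10). These sums share libraries and depth, so the values are a description. For Fcgr1 they were Dhx58 (0.85), Trim30a (0.83), Smox (0.83), Ms4a6b (0.82) and Rnf213 (0.81), of which Dhx58, Trim30a and Rnf213 are known interferon-stimulated genes. For Fcgr2b they were Ctsc (0.89), Ctss (0.89), Lpxn (0.86), Cd14 (0.83) and Cd53 (0.83). For Fcgr3 they were Cd14 (0.93), Lyz2 (0.93), Alox5ap (0.92), Ctss (0.90) and Lilrb4a (0.89). For Fcgr4 they were Apoc2 (0.81), Tnfrsf1b (0.78), Ly6e (0.78), Msrb1 (0.78) and Lst1 (0.77). For Fcer1g they were Tyrobp (0.95), which encodes the related adaptor DAP12, Hcls1 (0.95), Lyn (0.94), Ptpn6 (0.94) and Arpc5 (0.94). Fcgr2b and Fcgr3 had a correlation of 0.81 with each other, and Fcgr2b and Fcgr4 of 0.33.

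Cells of donor origin carried more of the activating receptors Fcgr4 and Fcgr1 than recipient cells. Fcgr4 stood at 42.1, 37.4, 23.8 and 23.3 CPM in donor cells from baseline to resolution, and at 3.29, 9.22, 8.99 and 3.28 CPM in recipient cells. The groups did not overlap. The recipient values rest on 6, 32, 31 and 15 UMIs. At resolution they lay within the counting interval of the fibroblast-like cells there (1.48 to 8.77 CPM) and are read as background. At baseline they lay below that interval (8.31 to 28.1 CPM). The baseline fibroblast-like cells held 1618 CPM of Fcer1g, against 148, 100 and 156 at the later stages, and are no clean background. The fold at baseline and resolution thus depends on background. At peak and plateau they lay above it (0.992 to 4.53 and 0.405 to 3.81 CPM). Some of these counts came from cells with at least 10 UMIs of each CD45 antibody. Without those cells, Fcgr4 made up 2.61% of 575 recipient receptor UMIs at peak, in place of 3.36% of 951. At plateau it made up 5.01% of 459, in place of 4.71% of 658. Fcgr4 was higher in donor cells by 2.54 on the log2 scale (SE 0.35, adjusted p = 0.00589, edgeR's quasi-likelihood test with the library as block, Benjamini-Hochberg over 11498 genes), in 4 of 4 libraries. It was 2.25 without baseline (edgeR adjusted p = 0.0109) and 2.44 without resolution (0.0163). In this fit 19.8% of genes were called at an adjusted p of at most 0.05, 9.95% higher and 9.85% lower in donor cells.

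Fcgr1 stood at 48.9, 319, 157 and 17.7 CPM in donor cells and at 32.3, 50.7, 29.3 and 11.4 CPM in recipient cells. The recipient value at baseline lay within the fibroblast-like interval there (14.3 to 38.1 CPM), and the others lay above theirs. Many of the recipient counts at peak and plateau came from cells with at least 10 UMIs of each CD45 antibody. Without those cells, Fcgr1 made up 14.1% of 575 recipient receptor UMIs at peak, in place of 18.5% of 951. At plateau it made up 8.06% of 459, in place of 15.3% of 658. Whether the remaining counts exceed background was not tested. Donor cells were higher in each library, with the widest gap at peak and plateau, although the donor level at resolution lay below recipient levels of other stages. The difference was 1.85 (log2, SE 0.42, edgeR adjusted p = 0.0267). It was 1.49 without the peak library (edgeR adjusted p = 0.0706) and 1.61 without the plateau library (0.0663), so that the call rested on both. Fcer1g stood at 3394, 4082, 2541 and 2295 CPM in donor cells and at 2552, 1483, 1205 and 2130 CPM in recipient cells. Donor cells were higher in 4 of 4 libraries, and the groups overlapped across stages. The difference was 0.98 (SE 0.28, edgeR adjusted p = 0.0497). It was called only narrowly, and its adjusted p was 0.0797 without baseline, 0.139 without peak and 0.135 without plateau.

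Fcgr3 stood at 210, 283, 166 and 171 CPM in donor cells and at 189, 91.9, 71.1 and 152 CPM in recipient cells. Its difference was 1.00 (SE 0.29, edgeR adjusted p = 0.0556), which did not pass, and it passed without resolution (1.27, edgeR adjusted p = 0.0406). Fcgr2b stood at 118, 245, 241 and 207 CPM in donor cells and at 139, 122, 81.5 and 142 CPM in recipient cells. Its difference was 0.94 (SE 0.27, edgeR adjusted p = 0.0553), which did not pass either, and it passed without baseline (1.24, edgeR adjusted p = 0.0259). On CPM of all UMIs, donor Fcgr2b was higher in 3 of 4 libraries, with baseline the exception, while the fit's own scaling placed it higher in 4 of 4.

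Donor and recipient cells were different mixes of clusters. The Vsig4-led tissue macrophage-like cluster held 63.2%, 18.7%, 18.8% and 39.0% of recipient cells from baseline to resolution and 0.9%, 0.1%, 0.2% and 1.8% of donor cells. Osteoclast-like cells of the larger such cluster made up 20.5% of recipient cells at peak and 23.0% at plateau, against 3.0% and 14.0% of donor cells. To compare like with like, equal numbers of donor and recipient cells were drawn from each library and cluster, which kept 51, 139, 189 and 483 recipient cells. After matching, Fcgr1 stood at 28.2, 61.9, 36.8 and 17.1 CPM in donor cells and at 16.3, 41.2, 19.9 and 9.96 CPM in recipient cells. Donor cells were higher in 4 of 4 libraries, by 0.77 (log2, SE 0.15, edgeR adjusted p = 0.0303). These sums pool the clusters, and single clusters varied in direction. With all their cells, donor Fcgr1 was 4.88-fold the recipient level in the Vsig4-led cluster at resolution. In the larger osteoclast-like cluster at peak it was 0.417-fold, on 22 donor and 16 recipient UMIs at levels read as background. Fcgr2b stood at 121, 108, 76.6 and 196 CPM in donor cells and at 93.0, 75.8, 59.3 and 141 CPM in recipient cells, higher in 4 of 4 libraries by 0.49 (SE 0.098, edgeR adjusted p = 0.0356). In this fit 1.86% of 10269 genes were called, 1.19% higher and 0.672% lower in donor cells.

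Both matched calls depended on how the cells were divided. With coarser clusters the Fcgr1 difference was 0.35 (edgeR adjusted p = 0.484) and that of Fcgr2b 0.059 (0.949), and with another random draw neither was called. With finer clusters Fcgr2b was called (0.55, edgeR adjusted p = 0.0431) and Fcgr1 was not (0.49, 0.167). Fcgr3 (0.46, SE 0.11, edgeR adjusted p = 0.0715), Fcer1g (0.37, SE 0.11, 0.126) and Fcgr4 (0.79, SE 0.30, 0.251) did not pass after matching. For Fcgr4 the matched recipient cells held 3, 17, 27 and 12 UMIs, which limits the precision of that difference.

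**Figure D4:**
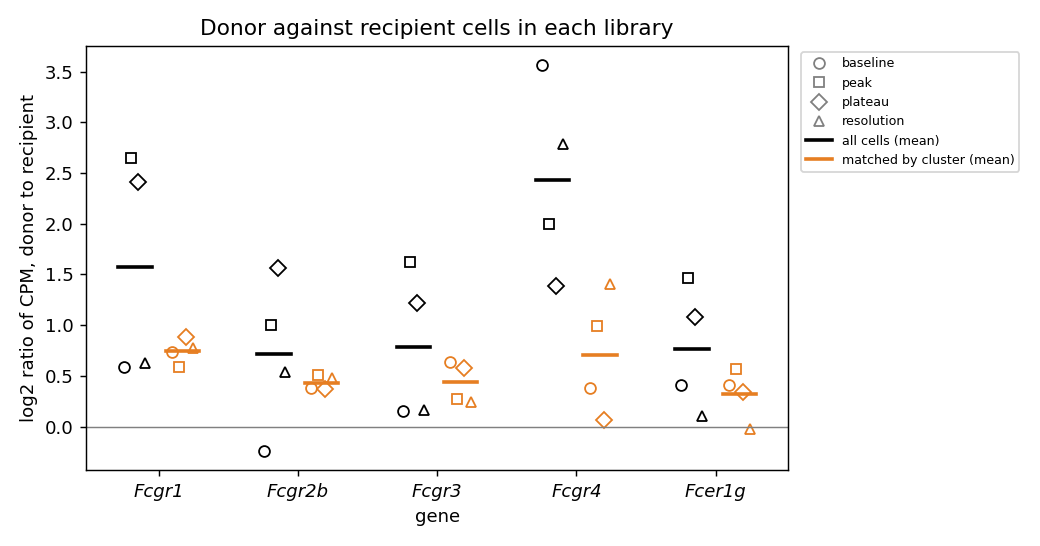
Log2 ratio of CPM, donor to recipient, in each library (symbols) and their mean (bars), for all cells in black and for cells matched by cluster in orange. Ratios of all cells spread widely, from -0.24 to 3.56, and matched ratios of Fcgr1 lie between 0.59 and 0.89.

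Genes that act with these receptors were taken from 4 lists, and their members were read in the same donor against recipient fit. Of 25 activating signalling genes tested, 14 were called higher in donor cells, none was called lower and 11 did not pass, with a median log2 difference of 0.82 against -0.02 over all genes, of which 9.95% were called higher and 9.85% lower. The Src-family kinase gene Fgr differed most (2.45, edgeR adjusted p = 0.00301). Pik3cd, a phosphoinositide 3-kinase subunit, differed by 1.61, Malt1, of the CARD9 pathway, by 1.47, Prkcd, a protein kinase C, by 1.21 and the adaptor gene Tyrobp by 1.16, with edgeR adjusted p between 0.00356 and 0.0171. Of 15 inhibitory signalling genes, 5 were called higher in donor cells and none lower, with a median of 0.35, beside the same 9.95% and 9.85% of all genes. They were the inhibitory receptor genes Cd300a (2.19) and Pirb (1.35), the phosphatase gene Ptpn6 (1.05), the kinase gene Csk (0.89) and the ubiquitin ligase gene Cbl (0.82). Lilrb4a, the most abundant, differed by 1.16 and did not pass (edgeR adjusted p = 0.0507). After matching by cluster, Rac2 (0.51) was the activating gene called and Cd300a (0.92) the inhibitory one, both higher in donor cells, as were 1.19% of all genes.

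Of 8 other receptors that pair with the Fcer1g chain, 5 could be tested and 4 were called higher in donor cells, where 9.95% of all genes were: the C-type lectin genes Clec4e (2.13), Clec4n (1.84) and Clec4d (1.54), and Pira2 (0.91). After matching by cluster 2 of 5 were called, Clec4e (0.61, edgeR adjusted p = 0.0152) and Oscar (1.2, 0.0321), the latter higher in donor cells in 2 of 4 libraries. Clec4n (0.86), Clec4d (0.36) and Pira2 (0.51) did not pass, and the median of the list was 0.61 in place of 1.54. From baseline to resolution over all cells, Clec4e stood at 169, 559, 262 and 153 CPM, Clec4d at 59.0, 362, 251 and 49.0, and Clec4n at 25.8, 178, 216 and 33.2. All 3 were highest at peak or plateau. The osteoclast-associated Oscar stood at 0 (0 UMIs), 16.1, 83.8 and 0.111 CPM, highest at plateau. Of this list 4 of 5 genes tested were past 2-fold higher at peak than at baseline, where 8.52% of all genes were. Of the remaining Fc receptors 4 of 12 could be tested, and 2 were called lower in donor cells: Fcer1a, of the IgE receptor (-4.67), and Fcgrt, the neonatal Fc receptor that recycles IgG (-1.5). The Mcpt4-led cluster, which has Fcer1a among its leading genes, held 25 recipient cells and 1 donor cell, whose part in the Fcer1a difference was not tested. After matching, Fcgrt differed by -0.32 (edgeR adjusted p = 0.418) and did not pass, Fcer1a could not be tested, and Fcrls, an Fc receptor-like gene, was called higher in donor cells (2.78, edgeR adjusted p = 0.0383, in 3 of 4 libraries). Among stage ratios, activating signalling had 1 of 25 genes past 2-fold in each direction in every contrast, with Src higher and Prkcd lower at peak than at baseline. These 2 of 25 stand beside the 17.4% to 23.8% of all genes that were past 2-fold in either direction.

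The CD64 antibody was counted in cells that the labels give as sorted CD64-negative. Its UMIs per 10000 antibody UMIs, CD45.1 and CD45.2 left out, were 7.95 at baseline, 26.5 at peak, 17.4 at plateau and 8.61 at resolution, and its mean per cell was 1.56, 2.71, 1.42 and 0.421. Per 10000, the order of the first 3 stages was that of Fcgr1 RNA, while the resolution value stood near the baseline one. By mean per cell the order differed, with baseline above plateau and resolution well below baseline. Donor cells held 6.17, 26.7, 18.3 and 8.93 and recipient cells 21.9, 24.4, 9.68 and 7.08 per 10000. Recipient cells were higher at baseline, and donor cells in the other 3 libraries. The difference was 0.39 (log2, SE 0.32, edgeR adjusted p = 0.40 over 85 antibodies, of which 17.6% were called), which did not pass. Without TMM scaling it was -0.079.

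Cells with an Fcgr1 UMI after thinning had more CD64 antibody than cells without. The means were 2.02 against 1.60 UMIs at baseline, 3.17 against 2.48 at peak, 1.93 against 1.33 at plateau and 0.548 against 0.422 at resolution. The median antibody depth of the cells with a UMI was 1117, 831, 700 and 350, against 1041, 811, 683 and 397 without. The cells with a UMI were higher in each library. Per 10000 antibody UMIs they held 10.1, 29.1, 21.5 and 12.2 from baseline to resolution, against 7.73, 24.2, 15.1 and 8.12 without. By cluster, with libraries summed, CD64 was highest per 10000 in the low-depth osteoclast-like cluster (32.0), where the mean per cell was 0.123, and in classical monocyte-like (29.7), H2-Eb1-led (29.3) and Cxcl3-led (28.8) cells. It was lowest in the Mmp12-led cluster (5.63). Within libraries, Vsig4-led tissue macrophage-like cells were highest at peak (43.1, mean 9.62 per cell, against 31.3 in classical monocyte-like cells) and at baseline (25.5 against 8.64). Over the 58 sums by library and cluster, Spearman's rho of CD64 with Fcgr1 RNA was 0.54, as a description. It was -0.02 over 10 sums at baseline, 0.19 over 19 at peak, 0.48 over 16 at plateau and 0.59 over 13 at resolution.

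**Figure D5:**
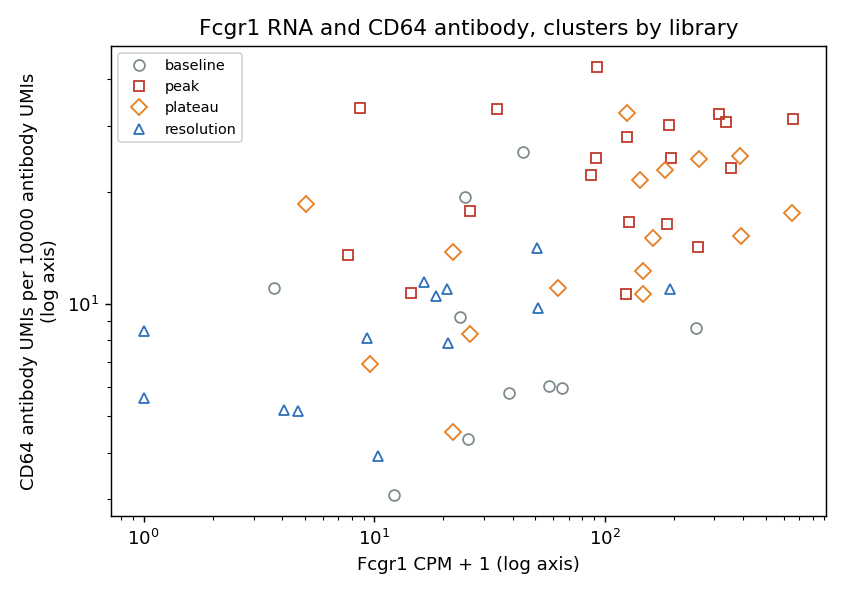
CD64 antibody UMIs per 10000 antibody UMIs against Fcgr1 CPM + 1 (both log axes), each symbol a cluster in a library with at least 20 cells. Peak symbols lie high, between 10.7 and 43.1 per 10000, and resolution symbols low, between 3.91 and 14.1.

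The FceRIa antibody stood at 3.67, 17, 100 and 16.9 per 10000. The libraries held 5, 2, 2 and 0 barcodes with over 10000 UMIs of 1 antibody, and without them the values were 3.95, 17.1, 5.44 and 16.9. Donor minus recipient was -0.64 (log2, SE 1.06, edgeR adjusted p = 0.667). With those barcodes left out it was -1.43 (SE 0.33, edgeR adjusted p = 0.0269), a setting chosen after seeing the data. The 2 clusters highest for this antibody were the basophil-like cells and the unnamed cluster led by the mast cell genes Mcpt4 and Cma1.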

How the data were processed

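The data are 4 libraries of sorted mouse synovial cells, 1 per stage. The authors deposited raw UMI counts per gene, antibody and barcode, not normalized, made with Cell Ranger 6.1.2 per the file headers and with mm10 per the submitters' processing notes, which also list Seurat 4.4.0 without a step. The members and lists were chosen with earlier results of these data known.

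Barcodes under 300 genes or over 10% mitochondrial UMIs were left out, which removed 19, 167, 65 and 43 barcodes by genes and 38, 382, 211 and 125 by mitochondrial UMIs. Doublets were not called; an alternative left out cells in which each CD45 antibody reached 10 UMIs. Kept cells held 11957871, 58705149, 29588064 and 27096151 gene UMIs. Clusters came from Leiden (scanpy 1.11.5, leidenalg 0.10.2, resolution 0.8) on 2000 variable genes without the 5 members, 30 components and 15 neighbours, with no integration of libraries. A cluster was named when 3 or more markers, and 50% or more of that type's, were found in 10% of its cells or more, at 2 times their share elsewhere. Names are rebuilt from RNA and may differ from the study's.

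Donor and recipient counts, summed per library, were tested with edgeR 4.0.16 (TMM, quasi-likelihood, the library as block because both sums come from the same library, Benjamini-Hochberg). Matching used clusters with at least 5 cells of both. DESeq2 1.42.0 was an alternative. Tested on simulated counts for donor against recipient (11167 genes), the fit called 41% of genes changed 2-fold and 92% of those changed 4-fold, with 8.28% false calls. Stage ratios carry 0.5 added counts, need 30 UMIs and have no test. Intervals are exact at 95% (Poisson for CPM, Clopper-Pearson for shares) and cover counting error only. Named genes were the 5 members, up to 6 called genes per list by size plus the most abundant, the 5 genes most like each member among those of at least 20 mean CPM, and the Fc receptor antibodies. Promoters came from RefSeq and matched all 5 members. Some items are not reported here.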

Additional observations from a re-analysis of the deposited data

Results flagged for a closer look

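In 5 cases donor and recipient cells of the same libraries moved in opposite directions between stages, with both counting intervals excluding no change. These differences were not tested, since each stage has 1 library. From baseline to peak, Fcgr3 went from 210 to 283 CPM in donor cells and from 189 to 91.9 in recipient cells, a gap between their log2 ratios of 1.47. Fcer1g went from 3394 to 4082 CPM in donor and from 2552 to 1483 in recipient cells, a gap of 1.05. Fcgr4 went the other way, from 42.1 to 37.4 CPM in donor and from 3.29 to 9.22 in recipient cells, a gap of -1.57. This gap rests on 6 recipient UMIs at baseline and 32 at peak. Part of the peak count came from cells with at least 10 UMIs of each CD45 antibody. Without those cells, Fcgr4 made up 2.61% of 575 recipient receptor UMIs at peak, in place of 3.36% of 951.

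From plateau to resolution, Fcgr2b went from 241 to 207 CPM in donor cells and from 81.5 to 142 in recipient cells, a gap of -1.02. Fcer1g went from 2541 to 2295 CPM in donor and from 1205 to 2130 in recipient cells, a gap of -0.97. Osteoclast-like cells of the larger such cluster, low in all these genes, made up 0, 20.5%, 23.0% and 0.3% of recipient cells from baseline to resolution; their part in these gaps was not tested.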

How the results depend on the processing

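With the library left out of the model (no replicate block), 513 genes were called in place of 2276, 0 in place of 191 after matching (211 at an unadjusted p under 0.05, edgeR) and 6 antibodies in place of 15. Donor and recipient sums of a library are paired because they come from the same library, so the block is the main fit. Without the block the differences were 2.41 for Fcgr1 and 1.00 for Fcer1g, and after matching 0.73 for Fcgr1 and 0.50 for Fcgr2b, none called; FceRIa was 0.37. Fcgr4 was called in every alternative of the fit to all cells. Fcgr1 missed the threshold with cells of both CD45 antibodies removed (2.34), as did Fcer1g (1.05; 0.93 with a CD45 log2 ratio of at least 2). Fcgr2b passed with DESeq2 size factors (0.95), DESeq2 (0.95), no filter on low counts (1.06) and stricter cell filters (0.94). Fcgr3 passed with DESeq2 (1.02), with no filter (1.12) and without resolution (edgeR adjusted p = 0.0406), and Fcgr2b without baseline (0.0259). After matching, coarser clusters (116 genes called) gave 0.35 for Fcgr1 and 0.059 for Fcgr2b, finer clusters 0.49 for Fcgr1, not called, and 0.55 for Fcgr2b and 0.52 for Fcgr3, both called, and another draw 0.62 for Fcgr1 and 0.46 for Fcgr2b. CD64 turned to -0.079 without TMM. The cause of these moves was not tested.

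Leaving out 1 library at a time gave 936 (without peak) to 1935 genes called, 56 (without peak) to 152 after matching, and 5 (without plateau) to 13 antibodies. The differences ranged from 0.72 to 1.24 for Fcgr2b, 0.75 to 1.27 for Fcgr3, 0.77 to 1.25 for Fcer1g and 1.49 to 2.21 for Fcgr1. After matching they ranged from 0.46 to 0.52 for Fcgr2b, called in none of the 4, and from 0.71 to 0.87 for Fcgr1, called without baseline alone. FceRIa ranged from -1.59 without plateau to 0.17 without peak.

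For Fcgr1 from baseline to peak, TMM totals gave 2.82 and equal cluster weights 1.31. From peak to plateau, TMM gave -1.36, stricter cell filters -0.90 and equal weights -0.059. From plateau to resolution, stricter filters gave -3.27 and equal weights -2.10. From baseline to resolution, equal weights gave -0.54. Leaving isotype controls out of the antibody totals was not run, since no antibody name used here marks one. Recipient depth, 190 to 730 cells, limits Fcgr4 and Fcgr1 there.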
